A study of Mus musculus with 7 samples.

Results

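Fibril-forming collagens are built in the endoplasmic reticulum (ER) by a dedicated set of enzymes, chaperones and export factors, and the genes described here are 10 of them, taken by symbol out of 44818 features (42689 of them genes). All 10 passed the filter on low counts, which 16028 features passed. Prolyl 4-hydroxylase, whose catalytic alpha subunits are encoded by P4ha1, P4ha2 and P4ha3, modifies prolines so that the collagen triple helix is stable at body temperature. Crtap, P3h1 and the cyclophilin Ppib form a complex that 3-hydroxylates prolines of the chains, Fkbp10 is a prolyl isomerase of the ER, and Serpinh1 (HSP47) is a chaperone that binds folded procollagen. Sec24d is a cargo adaptor of the COPII coat, Mia3 (TANGO1) connects bulky procollagen to that coat at ER exit sites, and Creb3l1 (OASIS) is an ER-membrane transcription factor of collagen-secreting cells. Loss of Serpinh1, Crtap, P3h1, Fkbp10, Creb3l1 or Sec24d is known to cause brittle bones in people, and tendon, made mostly of type I collagen, relies on the same route.

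RNA was sequenced from mouse hindlimb tendon of C57BL/6 background, from tissue between the calf muscle and the heel bone. The tenotomy group (n = 2) was the left leg with a cut Achilles tendon, 3 weeks after the cut and a concurrent dorsal burn (60 °C for 18 s over 30% of the body surface). The contralateral group (n = 3) was the right leg of such mice at 3 weeks, so its tendon was whole but the animal carried the burn and the cut in the other leg. The uninjured group (n = 2) came from wild-type mice with neither injury, with no time given. The labels give no age and do not say which libraries share an animal, so p-values measure the spread between these samples, which may be technical. The series concerns the kinase TAK1 in tissue formation after injury, including bone formed outside the skeleton. No group used here carries a TAK1 allele or inhibitor.

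Library totals were 25927171 to 36725106 estimated counts, of which the 5 features of highest count took 76.4% to 81.4%, leaving 4934057 to 8375626 counts for the rest. Tendon markers were present in every library: the summed level of 9 fibroblast and tendon genes was 255 to 398 CPM (counts scaled to a common library total) in contralateral, 622 to 626 in tenotomy and 400 and 572 in uninjured libraries. The libraries labelled uninjured stood apart from each other. The summed level of 10 skeletal muscle genes was 1000 CPM in uninjured replicate 1 and 7420 in replicate 2, beside 808 to 813 at the tenotomy site and 7520 to 9940 in contralateral tendon. The 8 macrophage and leukocyte genes summed to 109 and 27.4 CPM in the same 2 libraries, against 104 to 107 in tenotomy and 21.3 to 28.0 in contralateral libraries. No marker of any list was at 0 counts in any library. Sample titles are numbered, in 3 runs that the labels do not name as batches. Tenotomy replicate 1 shares its run with all 3 contralateral libraries. Uninjured replicate 1 has the number right after tenotomy replicate 2, and uninjured replicate 2 forms a run of its own. The library labelled uninjured replicate 1 thus lay near the tenotomy libraries in these muscle and leukocyte sums, and it does so in most of the genes below. Whether its label or its run of numbers had a part in this was not tested, and both comparisons with the uninjured group depend on it.

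RefSeq start sites in GRCm38.p6 were found for 8 of the 10 genes, Fkbp10 and Creb3l1 being named only. The 250 bases upstream of the start are given for Serpinh1, the most abundant of the 10 per length. Windows of 30 bases are given for the others around the letters ACGTG, a core found in sites of ER stress factors and OASIS-type factors. Capitals mark that core, or TGACGT or TGACGTGG where the longer form is present. Letters are given on the gene's own strand, and CACGT is the same motif read from the other strand. The last 5 letters of the P3h1 window are a second copy of the motif, on the other strand, left in lower case.
Serpinh1, chr7:99353240-99353489, minus strand: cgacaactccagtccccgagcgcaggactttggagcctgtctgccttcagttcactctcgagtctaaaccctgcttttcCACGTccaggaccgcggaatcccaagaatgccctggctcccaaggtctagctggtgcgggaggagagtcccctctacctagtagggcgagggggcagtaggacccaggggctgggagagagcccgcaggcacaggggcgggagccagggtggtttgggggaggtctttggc
Sec24d, chr3:123267459-123267488, plus strand: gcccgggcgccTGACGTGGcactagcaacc
Mia3, chr1:183369634-183369663, minus strand: ctgagcccttgcTGACGTgtcactcgcagc
P3h1, second start, chr4:119233785-119233814, plus strand: gcgctctttcaggACGTGggattgccacgt
P4ha1, chr10:59323266-59323295, plus strand: ggtgtgacagagcgCACGTagcgagggctg
P4ha2, chr11:54100833-54100862, plus strand: gtgtgcatcgcatACGTGcagcgcgtggcg

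ACGTG, searched on both strands, was in the 250 bases of 6 of the 8 genes and in 16.6% of all 32851 promoters searched. The 6 were Serpinh1, P3h1, Sec24d, P4ha1, P4ha2 and Mia3, and Crtap and P4ha3 had no match. The shares over all promoters count each start site, whereas the counts here are per gene. P3h1 held ACGTG at its second start and not at its first. The longer TGACGT, which overlaps ACGTG where a G follows, was in Sec24d and Mia3 and in 6.47% of all promoters. TGACGTGG was in Sec24d alone of the 8 and in 0.563% of all. In Sec24d it lay 26 to 19 bases upstream of the RefSeq start, where GENCODE, whose gene starts earlier, already annotates exon. CCACG was in 6 of the 8 and in 28.3% of all promoters, and the longer ER stress element (ERSE), of which CCACG is the end, was in 0 of the 8 and in 0.113% of all. These upstream bases held 53.6% to 70.4% G and C in the 8 genes, and the G and C of all promoters was not measured. The matches are a description of these letters only.

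At the tenotomy site 7 of the 10 genes were higher than in contralateral tendon and 0 were lower, by edgeR's quasi-likelihood test with Benjamini-Hochberg adjustment over all 16028 features. Serpinh1, P4ha3, Crtap, P3h1, Fkbp10, Creb3l1 and Sec24d rose 2.63-fold to 10.4-fold, with adjusted p from 0.0167 to 0.0197. P4ha1, P4ha2 and Mia3 did not pass the threshold of 0.05. Of all features 13.6% were called higher and 15.4% lower, 29.0% in either direction. The median log2 fold change was 1.64 over the 10 genes, and -0.0012 over all features tested. In 8 of the 10 genes, the 7 and P4ha2, both tenotomy libraries lay above all 3 contralateral libraries, as they did for 31.9% of all features.

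The call depended on which libraries were fitted. With the uninjured libraries left out of the fit, 8 of the 10 genes passed, the 7 and P4ha2, where 22.1% of all features were called higher. The same 8 passed without uninjured replicate 1 alone or replicate 2 alone, where 21.0% and 21.2% of all features were called higher. With the run of title numbers as a covariate, tenotomy replicate 2, which shares its run only with uninjured replicate 1, adds nothing to this comparison. It then rests on tenotomy replicate 1 alone against the 3 contralateral libraries, so no calls are given. In that library the 7 genes stood 1.37 to 3.23 above the contralateral mean in log2 CPM. In the fit of all 3 groups without any single contralateral or tenotomy library, 0 of the 10 genes and 0 of all features passed, with log2 fold changes of the 7 between 1.35 and 3.78 and adjusted p from 0.0501 to 0.126.

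**Figure D1:**
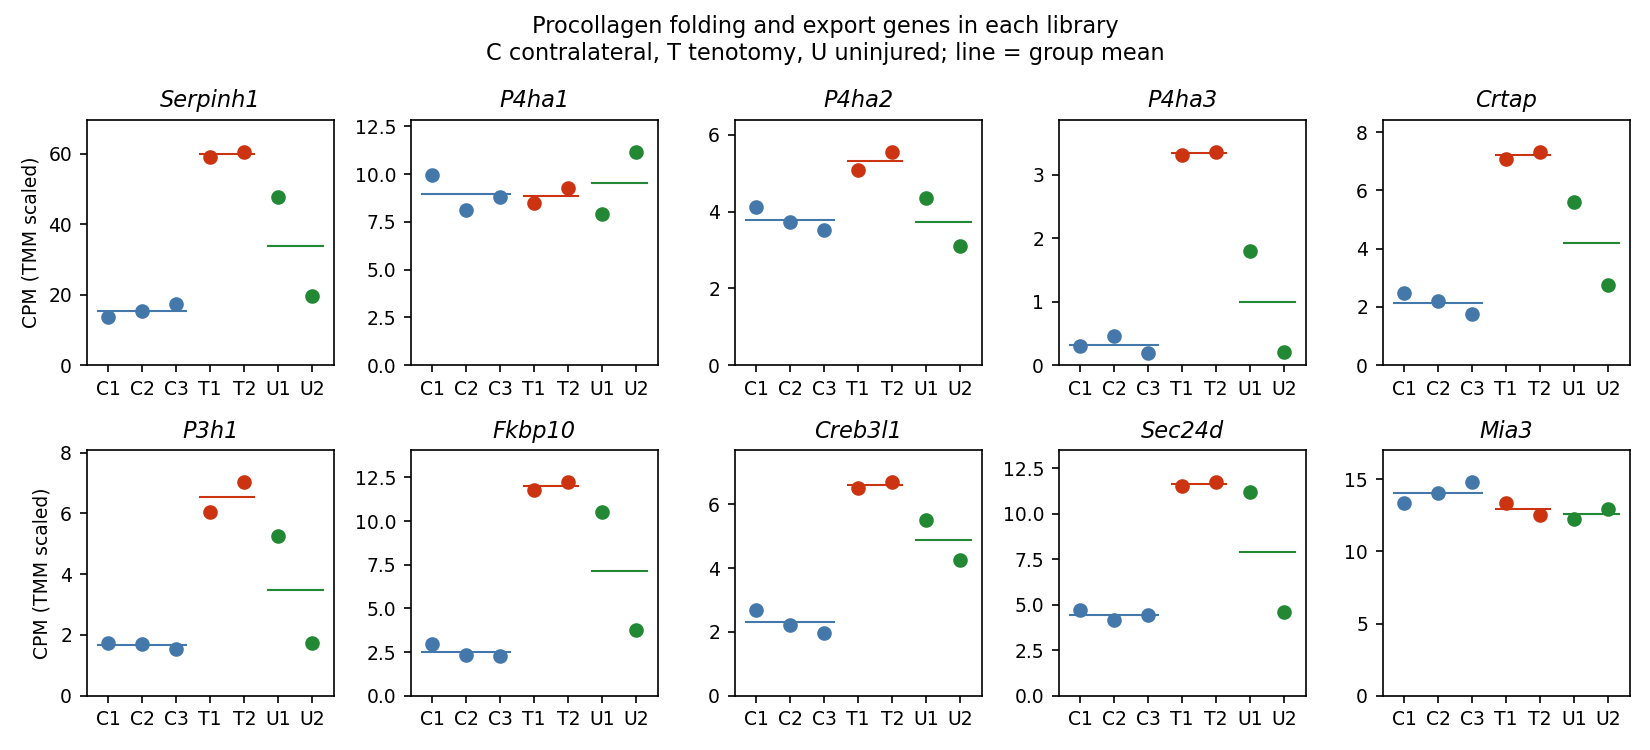
Level of each of the 10 genes in each library, in TMM-scaled CPM on linear axes from 0; points are libraries and lines are group means. In Serpinh1, P4ha3, Crtap, P3h1, Fkbp10, Creb3l1 and Sec24d the 2 tenotomy points lie together above the 3 contralateral points, and the 2 uninjured points lie far apart in all of these but Creb3l1, where they are 5.50 and 4.27.

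Serpinh1 (chr7:99345376-99353239, GRCm38) measured 13.6, 15.3 and 17.3 CPM in the 3 contralateral libraries, 59.1 and 60.6 at the tenotomy site and 47.8 and 19.6 in uninjured tendon. Both tenotomy libraries stood clear of every other library, and uninjured replicate 1 stood nearer to them than replicate 2 did. The rise over contralateral tendon was 3.88-fold (log2 fold change 1.96, SE 0.34, adjusted p 0.0167). Per length of the longest coding transcript, Serpinh1 was the most abundant of the 10 genes in all 7 libraries.

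Among the alpha subunits of prolyl 4-hydroxylase, the 3 genes differed. P4ha3 (chr7:100285520-100319699) measured 0.300, 0.455 and 0.186 CPM in contralateral libraries, from 7.9, 16.3 and 5.5 estimated counts. It measured 3.32 and 3.37 CPM at the tenotomy site, from 121.5 and 100.5 counts, and 1.80 and 0.207 in uninjured tendon. Its rise, 10.4-fold (log2 3.38, SE 0.66, adjusted p 0.0167), was the largest of the 10, and it was the least abundant of them per length in all 7 libraries.

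P4ha1 (chr10:59323296-59373304), the main isoform of most tissues, measured 9.97, 8.11 and 8.81 CPM in contralateral, 8.49 and 9.27 in tenotomy and 7.91 and 11.2 in uninjured libraries. The groups overlapped, and the log2 difference was -0.01 (SE 0.19, adjusted p 0.967). P4ha2 (chr11:54100095-54131665) measured 4.12, 3.73 and 3.53 CPM in contralateral, 5.09 and 5.57 in tenotomy and 4.35 and 3.10 in uninjured libraries. Both tenotomy libraries lay above the contralateral ones, with a log2 difference of 0.49 (SE 0.17, adjusted p 0.0700). P4ha2 passed when only these 2 groups were fitted (0.49, adjusted p 0.0074), and its sign turned with length-scaled TPM (-0.06, adjusted p 0.918).

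The P4ha2 counts were split between kinds of transcript. Retained-intron transcripts held 43.2% to 58.2% of its estimated counts and coding transcripts 30.1% to 50.7%. The coding transcripts alone summed to 1.24, 1.89 and 1.26 CPM in contralateral, 2.42 and 2.81 in tenotomy and 2.06 and 1.06 in uninjured libraries. The retained-intron transcripts summed to 2.39, 1.81 and 1.90, to 2.27 and 2.41, and to 2.12 and 1.79 CPM in the same order, so the groups overlapped. With counts of coding transcripts only, an alternative added after the values were seen, the log2 difference of P4ha2 was 0.85 (adjusted p 0.0638).

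Shares of the 3 alpha genes shifted with these levels. Per base of the longest coding transcript, P4ha3 held 2.92%, 5.22% and 1.94% of the 3 genes' sum in contralateral, 24.7% and 23.3% in tenotomy and 16.6% and 2.13% in uninjured libraries. P4ha1 held 54.5%, 50.7% and 55.8%, then 35.4% and 36.0%, then 41.0% and 64.1%. P4ha2 lay between 33.7% and 44.1% throughout on this measure. From the deposited TPM, the P4ha3 share was 1.23% to 4.32% in contralateral, 18.8% and 20.3% in tenotomy and 11.7% and 2.10% in uninjured libraries, in the same order of groups. The P4ha1 share by TPM, 35.9% to 45.7% in contralateral and 34.8% and 35.5% in tenotomy libraries, lay closer together than per base.

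P4hb, the beta subunit (protein disulfide isomerase) that holds the alpha subunits in solution, measured 18.0, 17.8 and 18.6 CPM in contralateral, 43.3 and 42.0 in tenotomy and 38.5 and 17.9 in uninjured libraries. It rose by 1.24 on the log2 scale (SE 0.29, adjusted p 0.0207). The summed alpha level per P4hb, both per base of coding transcript, was 0.700, 0.618 and 0.586 in contralateral, 0.382 and 0.422 in tenotomy and 0.346 and 0.668 in uninjured libraries. The contralateral and tenotomy ranges of this ratio did not overlap. The divisor P4hb itself rose, so genes that rose less or did not change tend to be lower on this measure. How many of all features were lower per P4hb was not counted. P4hb also serves other ER proteins.

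**Figure D2:**
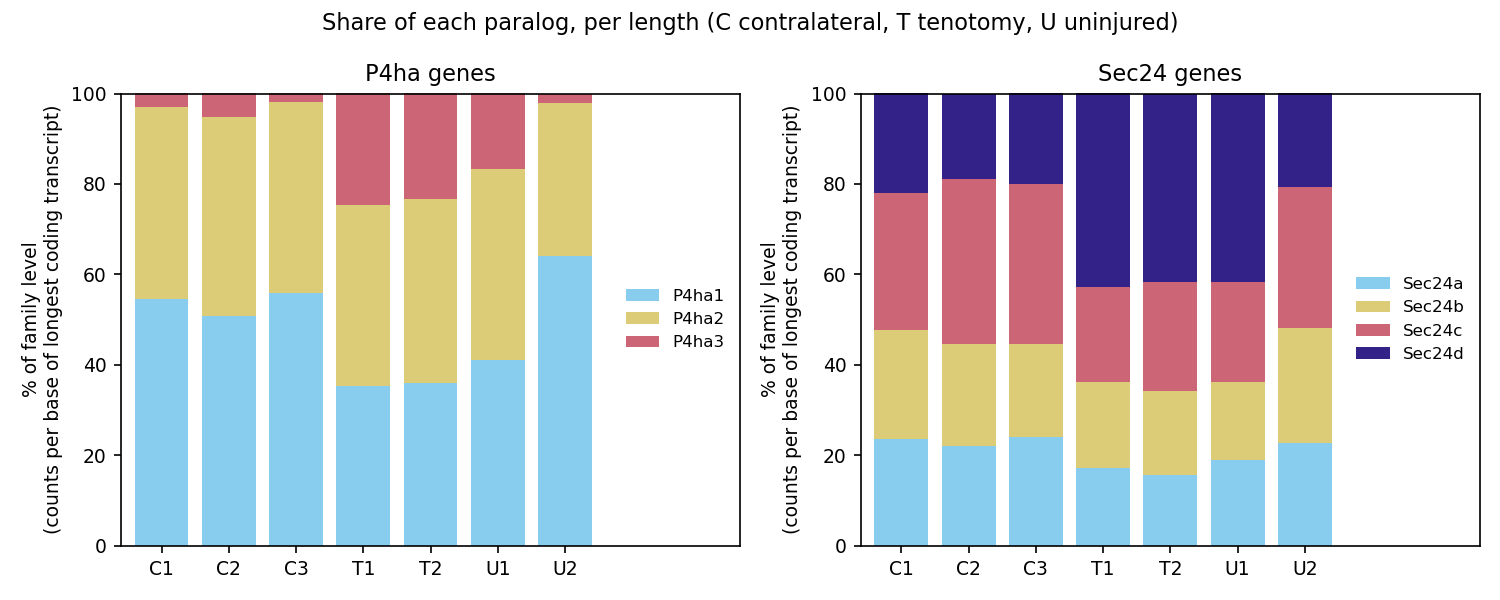
Share of each prolyl 4-hydroxylase alpha gene (left) and each Sec24 gene (right) in its family's summed level per base of longest coding transcript, in percent, 1 bar per library. P4ha3 and Sec24d take larger shares in both tenotomy libraries and in uninjured replicate 1 than in the contralateral libraries and uninjured replicate 2.

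The genes of the prolyl 3-hydroxylation complex rose together. Crtap (chr9:114375134-114390675), its helper subunit, measured 2.47, 2.22 and 1.76 CPM in contralateral, 7.07 and 7.33 in tenotomy and 5.61 and 2.75 in uninjured libraries. It rose 3.35-fold (log2 1.75, SE 0.28, adjusted p 0.0167). P3h1 (chr4:119232915-119248975), its enzyme, measured 1.72, 1.71 and 1.55 CPM, then 6.04 and 7.03, then 5.25 and 1.72. It rose 3.93-fold (log2 1.98, SE 0.39, adjusted p 0.0167), and uninjured replicate 2 lay within the contralateral range. Ppib, the cyclophilin of the complex, rose by 1.76 on the log2 scale (SE 0.32, adjusted p 0.0167).

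The paralogs of P3h1 did not all move with it. P3h3 and P3h4, which act with a lysyl hydroxylase on collagen, rose by 1.98 each (SE 0.36 and 0.23, adjusted p 0.0167 for both). P3h2, a prolyl 3-hydroxylase prominent in basement membrane collagen, had a log2 difference of -0.79 (SE 0.27, adjusted p 0.0584). It measured 4.27, 4.41 and 3.68 CPM in contralateral and 2.20 and 2.57 in tenotomy libraries, groups that did not overlap. Per base, P3h2 held 39.1% to 44.4% of the 4 genes' sum in contralateral libraries and 8.64% and 10.1% at the tenotomy site. P3h1 held 16.4% to 17.8% and 24.5% and 28.4% on this measure. From the deposited TPM, the P3h2 share was 66.1% to 72.5% in contralateral and 30.3% and 42.9% in tenotomy libraries. The TPM of P3h2 overlapped between these groups, at 0.956, 0.839 and 0.550 in contralateral and 0.48 and 0.911 in tenotomy libraries. The size of its fall thus depended on the measure.

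Fkbp10 (chr11:100415697-100424824), which encodes FKBP65, measured 2.96, 2.33 and 2.29 CPM in contralateral, 11.8 and 12.2 in tenotomy and 10.5 and 3.75 in uninjured libraries. Its rise of 4.76-fold (log2 2.25, SE 0.38, adjusted p 0.0167) came next after that of P4ha3 among the 10. Its ER relatives Fkbp7, Fkbp14 and Fkbp9 rose by 2.06, 1.57 and 1.25 on the log2 scale (adjusted p 0.0167 for each). Per length, Fkbp10 stood 7th of the 10 in every contralateral library and 2nd in both tenotomy libraries and uninjured replicate 1.

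Where reads could belong to a neighbour, that neighbour was also read. Fkbp10 shares 2504 bases with Nt5c3b on the opposite strand, whose log2 difference was -0.01 (adjusted p 0.989), and P3h4 lies 861 bases from it. Crtap shares 2096 bases with 4930520O04Rik on the opposite strand, which differed by -0.02 (adjusted p 0.966). AU022252 lies 203 bases from P3h1 and differed by -0.60 (adjusted p 0.0700). Whether counting used strand is not given in the sources used here, so reads in the shared bases cannot be told apart by strand.

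Creb3l1 (chr2:91982328-92024502) measured 2.70, 2.22 and 1.98 CPM in contralateral, 6.50 and 6.70 in tenotomy and 5.50 and 4.27 in uninjured libraries. It rose 2.88-fold (log2 1.52, SE 0.18, adjusted p 0.0167). Both of its uninjured libraries lay above all contralateral libraries and below both tenotomy libraries, as those of Serpinh1, Crtap and Fkbp10 also did. Its relatives Creb3l2 and Creb3 rose by 1.17 (SE 0.22, adjusted p 0.0167) and 0.68 (SE 0.21, adjusted p 0.0425).

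The export genes parted. Sec24d (chr3:123267455-123365641) measured 4.69, 4.16 and 4.42 CPM in contralateral, 11.5 and 11.7 in tenotomy and 11.2 and 4.58 in uninjured libraries. It rose 2.63-fold (log2 1.40, SE 0.32, adjusted p 0.0197). The other Sec24 genes had log2 differences of -0.16 for Sec24a, 0.09 for Sec24b and -0.26 for Sec24c (adjusted p 0.401, 0.691 and 0.274). Per base, Sec24d held 22.0%, 18.9% and 20.0% of the family in contralateral, 42.8% and 41.6% in tenotomy and 41.6% and 20.6% in uninjured libraries. From TPM, its share was 13.8% to 15.4%, 31.0% and 30.2%, and 25.6% and 12.0%.

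Mia3 (chr1:183326725-183369553) measured 13.3, 14.0 and 14.8 CPM in contralateral, 13.3 and 12.5 in tenotomy and 12.2 and 12.9 in uninjured libraries. Its log2 difference between tenotomy and contralateral was -0.12 (SE 0.14, adjusted p 0.546), and both tenotomy libraries lay just below all contralateral ones. In the annotation used, no listed Mia3 transcript spans the whole gene. Mia3-202, the longest at 2961 bases and 24 exons, covers chr1:183326725-183345296, and Mia3-204, with 4 exons, covers the 5′ end at chr1:183358565-183369553. Mia3-202 measured 9.51, 10.5 and 10.6 CPM in contralateral, 9.69 and 9.03 in tenotomy and 8.83 and 9.04 in uninjured libraries. Mia3-204 measured 2.70, 2.79 and 3.22, then 2.26 and 2.27, then 2.48 and 2.58 CPM, with both tenotomy libraries below all contralateral ones. Mia2, a paralog whose TALI and cTAGE5 products work with TANGO1, had a log2 difference of -0.36 (SE 0.14, adjusted p 0.0805).

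**Figure D3:**
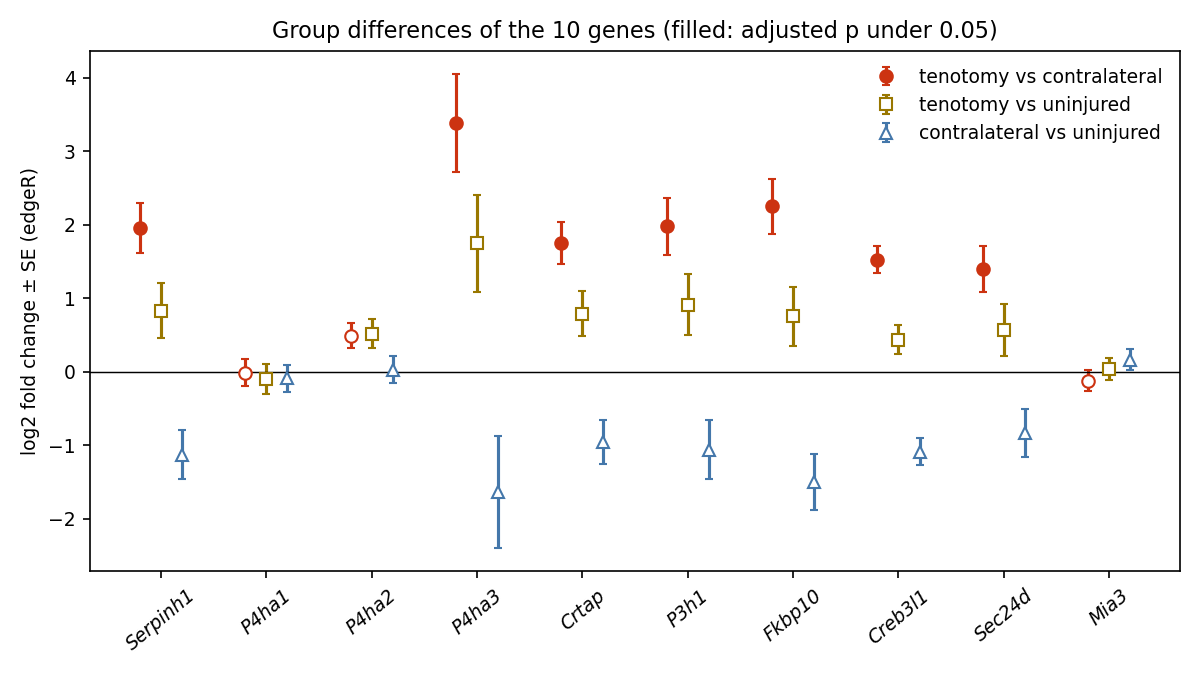
Log2 fold change with its standard error for each of the 10 genes in the 3 group comparisons by edgeR, fitted over all 7 libraries; filled symbols have an adjusted p under 0.05. Tenotomy against contralateral is filled for 7 genes, and 0 symbols are filled in the 2 comparisons with the uninjured group.

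The procollagen chains, the cargo of this machinery, all rose. Col1a1 measured 478, 466 and 373 CPM in contralateral and 2565 and 2583 in tenotomy libraries, a log2 rise of 2.55 (SE 0.25, adjusted p 0.0152), and Col1a2 rose by 2.18 (SE 0.25, adjusted p 0.0167). Col3a1, Col5a1 and Col5a2 rose by 3.39, 2.94 and 3.11 (adjusted p 0.0167 for each). Of the 10 genes described, only P4ha3 (3.38) had a larger log2 difference than Col1a1, and only P4ha3 and Fkbp10 (2.25) had one above that of Col1a2. These are differences set side by side, without a test between genes.

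As a percentage of the summed Col1a1 and Col1a2 counts, Serpinh1 was 1.44%, 1.73% and 2.43% in contralateral, 1.34% and 1.37% in tenotomy and 1.18% and 0.530% in uninjured libraries. Sec24d was 0.494%, 0.471% and 0.623%, then 0.261% and 0.265%, then 0.274% and 0.123%. Mia3, which did not rise, was 1.41%, 1.59% and 2.09%, then 0.302% and 0.282%, then 0.300% and 0.349%. P4ha3 alone of the 10 was higher per cargo count in both tenotomy libraries (0.0748% and 0.0755%) than in all contralateral ones (0.0313%, 0.0525% and 0.0240%). For Fkbp10 the ranges overlapped, at 0.264% to 0.322% in contralateral and 0.267% and 0.276% in tenotomy libraries. The other 8 were lower per cargo count in both tenotomy libraries than in all contralateral libraries. The divisor itself rose, Col1a1 by 2.55 and Col1a2 by 2.18 on the log2 scale, whereas the median over all features tested was -0.0012. Genes that rose less than the chains, or did not change, thus tend to be lower on this measure. The share of all features that were lower was not counted. An exact two-sided permutation test of 2 against 3 libraries cannot give a p below 0.2, so no test is given.

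In uninjured replicate 2, the type I chains were high and the other chains and most of the 10 genes were not. Its Col1a1 was 2214 CPM, beside 2357 CPM in replicate 1, while its Col3a1 was 384 CPM against 1808 in replicate 1. On a log2 scale with the contralateral mean at 0% and the tenotomy mean at 100%, replicate 2 stood at 91.5% for Col1a1 and 85.7% for Col1a2, but at 29.7% for Col3a1, 17.4% for Col5a1 and 25.7% for Col5a2. Of the 10 genes, its Creb3l1 stood at 58.8%, and its P4ha1, at 11.2 CPM, was the highest of the 7 libraries. Its Serpinh1, Crtap, P3h1, Fkbp10 and Sec24d per cargo count were each the lowest of the 7 libraries, as were its P4ha2, P4ha3 and Creb3l1.

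**Figure D4:**
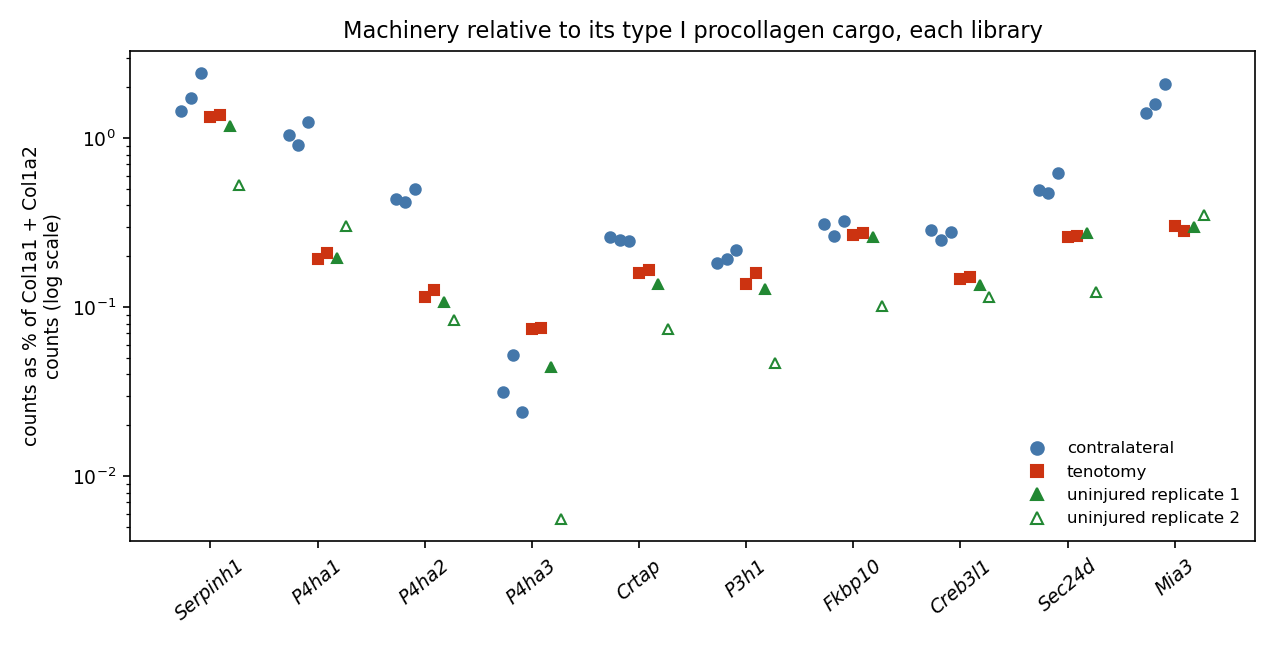
Estimated counts of each of the 10 genes as a percentage of the summed Col1a1 and Col1a2 counts in each library, on a log axis; each symbol is 1 library. For Mia3 and P4ha1 the tenotomy libraries lie several-fold below the contralateral ones, for P4ha3 above them, and uninjured replicate 2 is the lowest library for 8 of the 10 genes. The type I chains used as divisor themselves rose at the tenotomy site.

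Around the 10 genes, the other collagen-modifying enzymes and folding factors rose in 11 of 14 cases and fell in 1, with a median log2 fold change of 1.31. Of all features, 13.6% were called higher and 15.4% lower. All lists were chosen with earlier results of these data known. The largest rises were Plod2, which hydroxylates lysines of the chain ends (2.68, SE 0.42, adjusted p 0.0167), and Fkbp7 (2.06). Tmem38b, an ER cation channel whose loss also causes brittle bones, fell by 2.07 (SE 0.33, adjusted p 0.0167), from 8.51, 10.3 and 11.9 CPM to 2.58 and 2.27. Of the propeptide-cleaving genes, which trim procollagen after secretion, 4 of 7 rose, led by Bmp1 (1.87) and Adamts2 (1.65), adjusted p 0.0167 for both.

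The general secretory genes differed by list. Of 19 other COPII and ER exit genes, 3 rose, 3 fell and 13 did not pass, with a median of 0.09. Over all features 13.6% were called higher and 15.4% lower, so this list lay near those shares. Sec16b, an ER exit site scaffold, and Lman1, a cargo receptor, rose by 0.98 and 0.66 (adjusted p 0.0316 and 0.0404), while Sec31b, an outer coat subunit, and Sar1b, a GTPase that starts the coat, fell by 1.83 and 1.68 (adjusted p 0.0167 and 0.0296). The other 2, Mcfd2 (0.52) and Preb (-0.78), were named after their values were seen. Of 12 general ER chaperones 5 rose and 0 fell (median 0.52), with the disulfide isomerases Pdia3 at 1.33 and Pdia4 at 1.08 (adjusted p 0.0198 and 0.0167). Of 13 ER stress transducers and factors, 11 were tested, 4 rose and 0 fell (median 0.36), with Creb3l2 at 1.17 and Eif2ak3, the kinase PERK, at 0.99 (adjusted p 0.0328). In this list 8 genes had log2 differences above 0. Those below 0, named after their values were seen, were Atf4 (-0.54), Ddit3 (-0.55) and Atf6 (-0.28), with adjusted p 0.0830, 0.109 and 0.133. In each, both tenotomy libraries lay below all contralateral ones. Of the 3 KDEL receptors, which return escaped ER residents, Kdelr3 rose by 2.20 and Kdelr2 by 1.56 (adjusted p 0.0167 and 0.0172), and Kdelr1, named after its value was seen, differed by 0.77 (adjusted p 0.0519), which gave the list a median of 1.56.

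The 250 upstream bases of Kdelr3, searched after its values were seen, also held TGACGTGG, on the opposite strand. Other relatives were searched too, and none of those found held TGACGTGG. ACGTG was in Col1a2, P4hb and Ppib, which rose, and in Sec24a, Sec24b and Sec24c, which did not pass the threshold. Col3a1 and P3h3, which rose, had no ACGTG. The Kdelr3 window is shown because the 8-letter match is rare.
Kdelr3, chr15:79516367-79516396, plus strand: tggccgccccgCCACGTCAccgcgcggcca

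**Figure D5:**
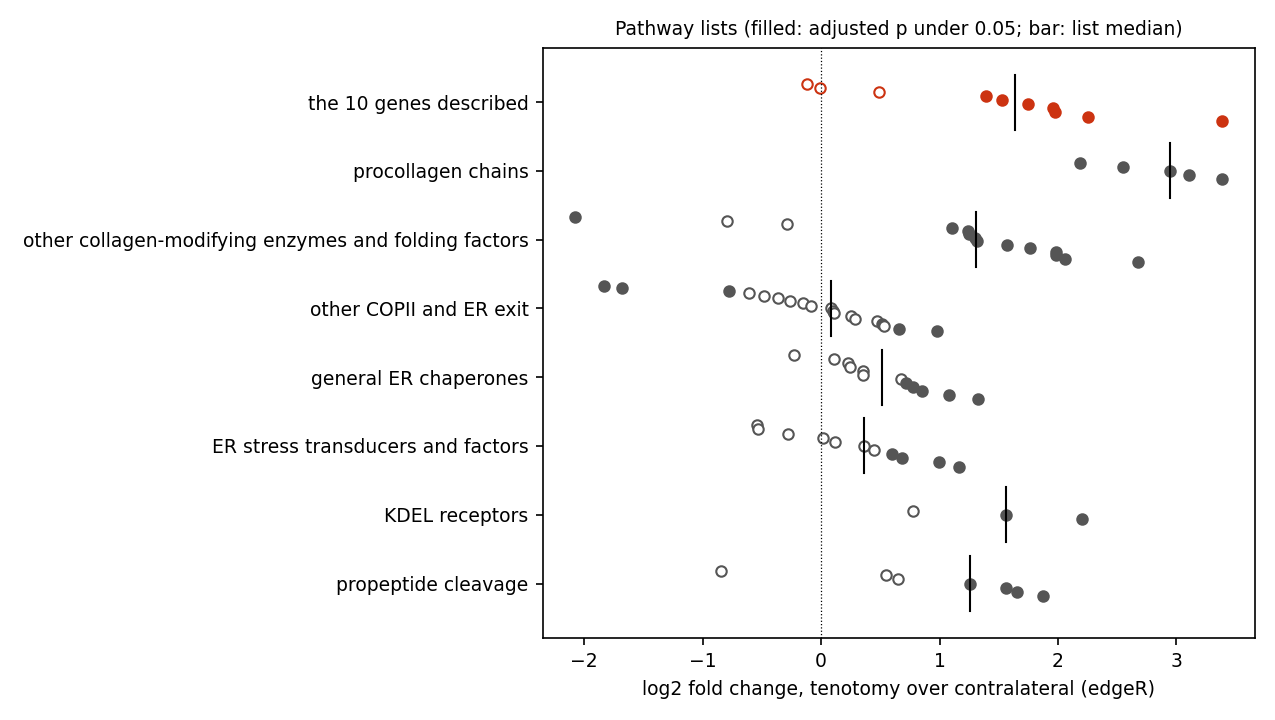
Log2 fold change of tenotomy over contralateral tendon for each tested gene of the 10 and of 7 lists of the pathway, 1 point per gene; filled points have an adjusted p under 0.05 and bars are list medians. The procollagen chains lie highest (median 2.94), and the other COPII and ER exit genes centre near 0 (median 0.09).

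Markers of most other cell types listed moved with these groups. All 10 skeletal muscle genes fell and all 8 macrophage and leukocyte genes rose at the tenotomy site against contralateral tendon, with the summed levels given above. Of 9 fibroblast and tendon genes 6 rose and 0 fell, and of 6 cartilage genes 5 rose, from a summed 22.7 to 44.2 CPM in contralateral to 285 and 289 in tenotomy libraries (117 and 30.8 in uninjured). Of 5 proliferation genes 4 rose, from 3.19 to 3.42 up to 12.8 and 14.4 CPM (11.6 and 2.72 in uninjured). Of 5 adipocyte genes 2 fell, from 118 to 147 down to 58.1 and 58.3 CPM. Of 5 endothelial genes 1 fell, the sums lying at 46.5 to 50.8 and 42.2 and 42.4 CPM. Over all features 13.6% were called higher and 15.4% lower, so the endothelial list lay near the latter share. The part of these cells in the rise of the 7 genes was not tested. In such bulk samples, fewer cells of a type and less RNA per cell cannot be told apart.

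Against uninjured tendon, 0 of the 10 genes passed the threshold at the tenotomy site by edgeR, where 0.0% of all features passed. At an unadjusted p under 0.05 there were 3 of the 10 genes and 1741 of all features, and DESeq2 called 145 features (0.905%). It called 0 of the 5 genes for which it gave an adjusted p, and gave none for P4ha2, P4ha3, Crtap, P3h1 and Creb3l1. The 7 genes had log2 differences of 0.43 to 1.75, with adjusted p from 0.450 to 0.555. This comparison shares its tenotomy libraries with the one above. On the same scale from contralateral to tenotomy mean, the 7 genes stood at 73.0% to 95.9% in uninjured replicate 1. In replicate 2 they stood at 58.8% for Creb3l1, 25.5% for Fkbp10, 20.8% for Crtap, 18.1% for Serpinh1, 3.69% for Sec24d, 2.69% for P3h1 and -12.9% for P4ha3.

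Leaving out 1 uninjured library decided both comparisons with that group. Without uninjured replicate 1, the 7 genes and P4ha2 (0.78, adjusted p 0.00701) were higher at the tenotomy site than in the remaining uninjured library, where 11.4% of all features were called higher. The lone library is then assumed to vary like the other groups. Without uninjured replicate 2, 0 of the 10 were called and 0.083% of all features were.

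Between contralateral and uninjured tendon, which differ in the burn and the cut of the other leg, 0 of the 10 genes passed by edgeR, and 0.0% of all features did. At an unadjusted p under 0.05 there were 6 of the 10 and 3084 of all features. The 7 genes had log2 differences of -0.83 to -1.64, contralateral lower, with adjusted p from 0.215 to 0.279. DESeq2, which gave no adjusted p for P4ha3, called Fkbp10 and Creb3l1 lower (adjusted p 0.0280 and 0.0130), where it called 0.886% of all features lower. With the run of title numbers as a covariate, the 7 genes had log2 differences of -1.22 to -2.46. In that fit uninjured replicate 2, alone in its run, adds nothing to the comparison. The uninjured side then rests on replicate 1 alone, shifted by the difference between the 2 tenotomy libraries, so no calls are given. With no filter on low counts, edgeR also called Fkbp10 and Creb3l1 lower (adjusted p 0.0276 and 0.0218), with 0.835% of all features. Without uninjured replicate 2 all 7 were called lower, where 15.0% of all features were. Without replicate 1, 0 of the 10 and 0.617% of all features were called, Creb3l1 standing at -0.90 with an adjusted p of 0.0583. P4ha1, P4ha2 and Mia3 had log2 differences of -0.09, 0.03 and 0.16 (adjusted p 0.805, 0.948 and 0.534).

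Across the 7 libraries, the genes whose log2 CPM ran most like that of Serpinh1, among 2083 genes with a mean of at least 3, were Spon1 (Pearson r 0.998), Selenof (0.998), Col6a3 (0.997), Col5a1 (0.996) and Lima1 (0.996). Of the 10 genes, P3h1, Sec24d and Fkbp10 had r of 0.981, 0.980 and 0.977 to Serpinh1. Creb3l1 was the one whose levels ran closest to Col1a1 (0.966), ahead of Fkbp10 (0.879), Crtap (0.861) and Serpinh1 (0.838). Mia3 ran against Col1a1 (-0.819) and P4ha1 had an r of 0.0782. These are descriptions over 7 libraries that fall in groups and share their make-up of muscle, and the r of Serpinh1-like genes to muscle Acta1 was as large with the sign turned (-0.984 for Serpinh1, -0.997 for P3h1 and Sec24d).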

How the data were processed

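RNA of 7 libraries was read from deposited tables of 103639 transcripts each. Per the file headers, the authors gave each transcript's length, effective length, estimated count (not normalized) and TPM. FastQC 0.11.4 and kallisto are named in the submitters' processing notes. These name the human build GRCh38, whereas the transcript IDs are those of mouse. Kits were Trizol, RNeasy-type columns and TruSeq, per the labels' protocols.

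IDs were matched without version to GENCODE M21 (GRCm38): 101510 matched, 57625 with the same version. Estimated counts were summed per gene and rounded. Features were filtered with filterByExpr (minimum count 10) and scaled by TMM. They were tested with edgeR 4.0.16 (R 4.3.3), quasi-likelihood, all 7 libraries in 1 fit of 3 group means, Benjamini-Hochberg, threshold 0.05. SE is the log2 fold change over the square root of F. CPM are TMM-scaled, with a prior count of 2 for log2 CPM. Scripts were tested on simulated data. DESeq2 1.42.0 and limma-voom 3.58.1, other scalings and filters, left-out libraries and fits of 2 groups were alternatives.

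Replicates were numbered in accession order and pair nothing. The 10 genes and all lists were chosen with earlier results of these data known. Named were the 10, their paralogs, P4hb, Ppib, the procollagen chains, the 2 largest rises and falls past the threshold in each other list, and the 5 genes most like Serpinh1. Promoters are from RefSeq, GRCm38.p6.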

Additional observations from a re-analysis of the deposited data

How the results depend on the processing

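No paired analysis was possible because the labels carry no replicate numbers and do not say which libraries share an animal. For the 7 genes under 26 alternatives each, tenotomy against contralateral tendon kept its direction in all the gene-by-alternative values. Of these values 43 did not pass the alternative's threshold, 7 of them at the stricter threshold of 0.01. The rest include the fit with the title series as a covariate, which rests on tenotomy replicate 1 alone, so their number is not given. Among the 26 is the fit of coding transcripts only, added after the values were seen. Of the 10 genes, 7 passed in the design chosen, 0 at a threshold of 0.01, 6 against a 1.5-fold change (Sec24d lost, adjusted p 0.0654) and 0 to 8 with 1 library left out. At 0.01, 0 of all 16028 features passed, the smallest adjusted p by edgeR being 0.0143. The median dispersion was 0.0272 over all 7 libraries and 0.0087 over the 5 of these 2 groups. All features called were 4643, against 7385 with only the 2 groups, 7308 and 7336 without uninjured replicate 1 or 2, 0 without any contralateral or tenotomy library, and 1565 against 1.5-fold. Upper quartile scaling moved the median of all features by 0.11, split the calls 2633 higher and 2163 lower, and brought P4ha2 past the threshold (adjusted p 0.0497).

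Tenotomy against uninjured gave 0 of 10, and 0 to 9 with 1 library left out. The count was 8 without uninjured replicate 1. With only these groups fitted it was 9 without replicate 1 (8 higher, P4ha1 lower) and 2 without replicate 2, in fits with 1 residual degree of freedom. DESeq2 gave no adjusted p for 5 of the 10 genes in this comparison and for 1 in the next. Contralateral against uninjured gave 2 with DESeq2 and 2 with no filter, and its count moved with 1 library left out. With the series of the title number as a covariate, tenotomy against contralateral rests on tenotomy replicate 1 alone. Both comparisons with the uninjured group then rest on uninjured replicate 1 alone for that group. So no counts are given for that covariate. All features called were 0 in both comparisons, against 145 and 223 with DESeq2 and 15 and 337 with no filter. These counts also moved with 1 uninjured library left out, which leaves 1 library in that group.

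Signs turned as follows, and the cause was not tested. P4ha1, tenotomy against contralateral, was 0.098 with upper quartile scaling, 0.0092 without the 5 features of highest count, 0.020 with length-scaled TPM, 0.0068 with coding transcripts only (added after seeing the data), -0.086 to 0.065 with 1 library left out, and 0.049 and 0.066 without tenotomy replicate 1 or contralateral replicate 1 in the fit of 2 groups. With the title series it was 0.23 for tenotomy and 0.30 for contralateral against uninjured. With 1 library left out these were -0.33 to 0.17 (0.16 in the fit of 2 groups) and -0.32 to 0.18. P4ha2 was -0.058 with length-scaled TPM at the tenotomy site. Contralateral against uninjured, it was -0.059 with upper quartile scaling, -0.071 with the title series, -0.12 with coding transcripts only, -0.20 to 0.29 with 1 library left out and -0.056 without contralateral replicate 1 in the fit of 2 groups. P4ha3 in that comparison was -2.48 to 0.61 with 1 library left out, and 0.59 in the fit of 2 groups. Mia3, tenotomy against uninjured, was -0.0062 to 0.083 with 1 library left out, and -0.011 and -0.0085 in fits of 2 groups. Low counts limit P4ha3 most, with 5.5 to 16.3 counts in contralateral libraries.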
